A study of Mus musculus with 6 samples.

Results

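The mitochondrial protein import machinery was examined in the quadriceps of AR97Q mice with and without running exercise. The genes were those with a non-control array probe whose symbol begins with Tomm or Timm, together with Chchd4, Pam16, Dnajc19, Grpel1, Grpel2, Samm50, Mtx1, Mtx2, Pmpca and Pmpcb. Of the 44931 genes and transcripts with a probe, 37 met this definition and were covered by 59 of 56605 probes, 14 genes with 23 probes on the outer membrane side and 23 genes with 36 probes on the inner side (intermembrane space, inner membrane and matrix). Of these 37, 34 passed the filter on dim probes and entered the test over 25005 genes and transcripts. All mice were male, 9 weeks old, kept on a C57BL/6J background, and transgenic for a human androgen receptor with an expanded CAG repeat, a model of spinal and bulbar muscular atrophy. The 3 Exercise mice were forced to run on a wheel at 5 m/min for 1 h a day, 5 days a week, for 4 weeks, and the 3 Sedentary mice carried the same transgene without the training. Both groups express the transgene, so the comparison shows running within the disease model, and the promoter that drives it is not given in the sources used here. Arrays of wild-type mice were not analysed here. Each mouse was measured on 1 single-colour Agilent array.

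Nearly all mitochondrial proteins are encoded in the nucleus, made in the cytosol and carried into the organelle by translocases. The TOM complex of the outer membrane is the common entry gate, the SAM complex inserts barrel-shaped proteins into that membrane, small Tim chaperones escort hydrophobic cargo across the intermembrane space, and the TIM22 and TIM23 complexes of the inner membrane take carrier proteins and presequence proteins, respectively. An ATP-driven motor completes the pull into the matrix, where a peptidase removes the presequence. Muscle fibres are rich in mitochondria, and endurance training is known to raise their mitochondrial content.

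Import genes stood higher in the Exercise group, by little in each case, when each array was scaled to its own 75th percentile. Of the 34 genes tested, 31 had a log2 fold change above 0, and 15 were called higher by limma with a Benjamini-Hochberg adjusted p under 0.05, against 11.5% of all genes tested. None was called lower, against 6.12% of all genes, although 1 of the 34 had a lower value with an unadjusted p under 0.05, and none rose by 1 or more on the log2 scale, a size that 1.72% of all genes reached as called rises. The 15 rises ran from 1.28-fold to 1.70-fold, and the median log2 fold change of the 34 was 0.32, beside 0.026 for all genes tested. In 26 of the 34 the lowest Exercise value exceeded the highest Sedentary value, as was so in 25.0% of all genes. In 1 the order was the opposite, which held for 18.2% of all genes, and in 7 the groups overlapped. Direction rests on the scaling between arrays. With no scaling the median of all genes was -0.45 and that of the import genes -0.16. There 0 import genes were called higher and 4 lower, against 2.47% and 45.1% of all genes. The median of the import genes minus that of all genes was 0.29 in both settings, because 1 factor per array cannot change it. That difference was 0.17 with quantile normalization, 0.12 with normexp background correction and 0.14 with no filter on dim probes. With quantile normalization 25 of the 34 lay above 0 and 3 were called higher, against 7.46% of all genes. Those 3 were Timmdc1, Timm23 and Timm50 of the inner membrane, so the other rises described below were not called in that setting. In the table of values the authors deposited, 3 were called higher and 1 lower, against 4.69% and 12.8% of all genes, with a median of -0.13 over all genes. Changes are therefore given relative to the other genes on the array. With any 1 array other than Sedentary 1 left out (Exercise 1, 2 or 3, or Sedentary 2 or 3) 0 import genes were called higher, as were 0 of all 25005 genes. In those runs 17 to 19 import genes had a higher value with an unadjusted p under 0.05. Among all 25005 genes 6686 to 8146 had such a p in either direction. Without Sedentary 1, 17 import genes and 13.9% of all genes were called higher. In whole muscle, fewer cells of a type and less RNA per cell cannot be told apart.

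**Figure D1:**
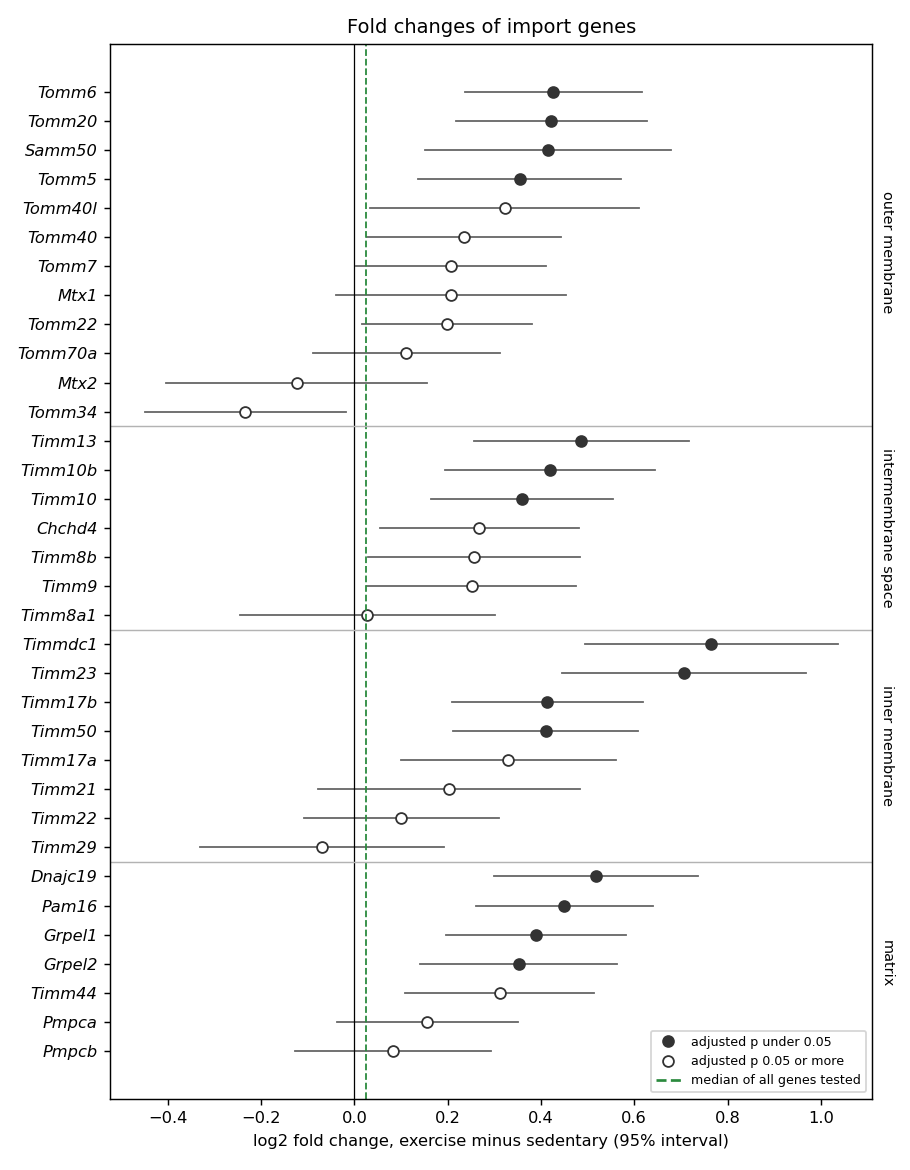
Log2 fold change (Exercise minus Sedentary, arrays scaled to the 75th percentile) of each of the 34 import genes tested, grouped by compartment, with 95% intervals from limma. Filled points are the 15 genes with an adjusted p under 0.05, all above 0, and the dashed line is the median of all genes tested, 0.026; with no scaling between arrays only 4 of the 34 fold changes lie above 0.

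Library and slide facts bear on every value. The 75th percentile of the raw signal was 251 to 257 on the Exercise arrays and 310 to 384 on the Sedentary arrays, 54.6% to 59.9% of probes exceeded background clearly, and saturation was absent (0 spots). The barcode in each array file put the arrays on 1 slide. A number at the end of the barcode was taken as the position on the slide and took 2 values, here called strips. All Exercise arrays and Sedentary 1 were in one strip and Sedentary 2 and 3 in the other. With the strip as a block, 0 of the 34 import genes and 0 genes in all were called higher. In that fit 13 import genes had a higher value with an unadjusted p under 0.05, beside 4827 of all 25005 genes in either direction. Against Sedentary 1 alone the median of the import genes was 0.24 beside 0.030 for all genes. That comparison has 1 Sedentary array, which is assumed to vary like the Exercise arrays, and since 0 of all genes were called in it, the 0 calls among import genes say nothing of them in particular. Sedentary 1 was the highest of its group for 18 of the 34. All 10 skeletal muscle markers were detected in this tissue labelled quadriceps, and 6 of them rose and 1 fell. Their summed log2 level was 12.40 to 12.57 on the Exercise arrays and 11.46 to 11.95 on the Sedentary arrays. Of the markers of other cell types, 0 of 5 for macrophages, 0 of 4 for endothelium, 0 of 5 for fibroblasts, 0 of 2 for brown adipocytes and 0 of the 3 tested for red blood cells were called, 1 of 5 for adipocytes rose, 1 of 4 for Schwann cells fell, and of 4 for smooth muscle 1 rose and 1 fell. The adipocyte list had a median log2 fold change of -0.92: Lep, the one that rose, stood at 0.35, and the other 4 were below 0 and not called, with a summed level of the list of 6.92 to 7.94 on the Exercise and 7.49 to 7.83 on the Sedentary arrays. The smooth muscle list had a median of -0.74, with Myh11 at -0.95 (called), Tagln at -0.52 and Cnn1 at -1.66 (not called) and Acta2 at 1.32 (called). Its summed level, 8.35 to 8.64 on the Exercise and 7.20 to 7.51 on the Sedentary arrays, therefore follows Acta2 and not the list. All 4 Schwann cell markers were below 0, with a median of -0.34 and a summed level of 3.82 to 4.30 against 4.29 to 4.68. The part of these in the differences below was not tested.

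On the outer membrane side 12 genes were tested, of which 4 were called higher and 0 lower, and the median log2 fold change was 0.22. On the inner side 22 were tested, with 11 called higher, 0 lower and a median of 0.34. Of all genes tested, 11.5% were called higher and 6.12% lower. With quantile normalization 0 outer and 3 inner genes were called higher, against 7.46% of all genes. The groups were apart, with Exercise higher, for 9 of 12 outer genes and 17 of 22 inner genes, as in 25.0% of all genes. The outer and inner shares, 75% and 77.3%, were nearly the same, and whether both sides differ in the size of the change was not tested. Within the inner side, 3 of 7 genes of the intermembrane space, 4 of 8 of the inner membrane and 4 of 7 of the matrix were called higher. With no scaling the medians became -0.25 on the outer and -0.13 on the inner side. Both stayed above the median of all genes, a difference that a factor per array cannot change.

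**Figure D2:**
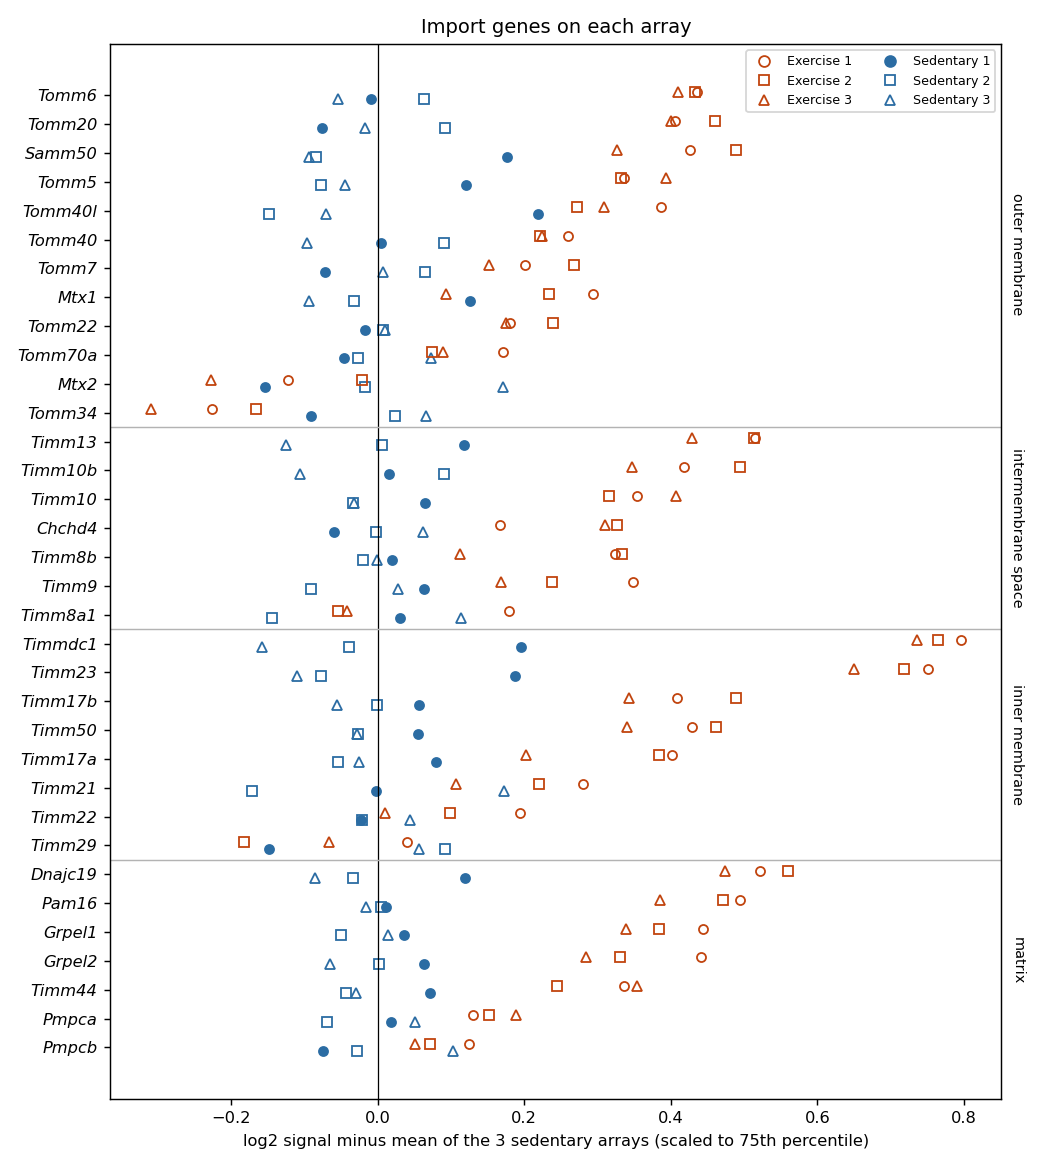
Log2 signal of each of the 34 import genes on each array, scaled to the array's 75th percentile, minus the mean of the 3 Sedentary arrays; orange symbols are Exercise and blue symbols Sedentary mice 1 to 3. Sedentary 1, drawn filled, lies in the same slide strip as the Exercise arrays and is the highest Sedentary value for 18 genes; Timmdc1 and Timm23 stand farthest right, and Tomm34 is the gene with all Exercise values below all Sedentary values.

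Start-site sequences of some import genes are shown because 2 factors of mitochondrial gene expression, NRF1 and the ETS factor GABPA, have well-known core motifs. The RefSeq promoter table (GRCm38.p6, 250 bases before to 50 after each start) held 35 windows for 33 of the 37 genes. The NRF1 core TGCGCA, which is its own reverse complement, was in 6 of the 35 windows and in 7.76% of all 32851. The ETS core CCGGAAGT, read on both strands, was in 9 of the 35 and in 3.89% of all, and neither motif contains the other. Either motif was in 14 of the 35 windows and in 11.1% of all. By gene, either was in 7 of the 14 called genes with a window and in 6 of the 16 tested genes that were not called. Shown 5′ to 3′ on the gene's own strand, and ending at the base before the start, are the windows of the genes with the largest rises, of the receptor Tomm20 and the motor subunit Pam16, and, with neither motif in its window, of Timm22, which was not called. Capitals mark a motif match. The windows shown are examples and do not stand for the whole group. Dnajc19 and Tomm6, both called higher, had neither motif, while Pmpcb and Tomm70a, not called, each had an ETS core.
Timm23 (chr14:32201892-32202091, minus strand): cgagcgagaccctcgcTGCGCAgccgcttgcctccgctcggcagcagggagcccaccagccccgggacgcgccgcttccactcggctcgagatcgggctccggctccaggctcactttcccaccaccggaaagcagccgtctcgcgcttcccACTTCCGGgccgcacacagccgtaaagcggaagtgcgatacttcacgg
Timmdc1 (chr16:38522664-38522823, minus strand): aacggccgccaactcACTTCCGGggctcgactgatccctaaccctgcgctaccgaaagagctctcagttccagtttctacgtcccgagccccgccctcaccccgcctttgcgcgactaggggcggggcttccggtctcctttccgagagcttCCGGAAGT
Tomm20 (chr8:126945922-126946041, minus strand): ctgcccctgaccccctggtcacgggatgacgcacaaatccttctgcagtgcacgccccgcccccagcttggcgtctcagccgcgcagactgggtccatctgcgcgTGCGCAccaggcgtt
Pam16 (chr16:4624947-4625066, minus strand): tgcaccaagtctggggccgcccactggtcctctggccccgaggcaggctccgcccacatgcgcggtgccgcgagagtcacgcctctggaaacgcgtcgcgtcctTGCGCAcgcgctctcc
Timm22 (chr11:76406805-76406924, plus strand): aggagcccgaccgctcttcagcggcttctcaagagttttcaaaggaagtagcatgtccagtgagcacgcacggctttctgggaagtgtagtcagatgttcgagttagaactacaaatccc
In Timm23 the NRF1 core begins 184 and the ETS core 48 bases before the start, and Timmdc1 holds ETS cores beginning 145 and 8 bases before it. In Tomm20 and Pam16 the NRF1 core begins 15 and 16 bases before the start. Matching letters are a description of these windows and show no binding.

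Among the receptors and channel proteins of the TOM complex, Tomm20 was called higher. Tomm20, the receptor for presequences, read 4.96, 5.02 and 4.96 on the Exercise arrays (log2 signal relative to the 75th percentile) and 4.48, 4.65 and 4.54 on the Sedentary arrays. The groups did not overlap, and the log2 fold change was 0.42 (SE 0.084, limma adjusted p = 0.0280). Its other 2 probes had log2 fold changes of 0.26 (adjusted p over probes 0.162) and 0.37 (0.0438), so that 1 of the 3 missed the threshold. Tomm70a, the receptor for carrier precursors, had a log2 fold change of 0.11 (95% interval -0.09 to 0.31, adjusted p = 0.363). Tomm22, the central receptor, had a change of 0.20 in log2 signal (adjusted p = 0.112) with all Exercise arrays above all Sedentary arrays. Tomm40, which forms the channel, read 3.63, 3.59 and 3.60 on the Exercise and 3.38, 3.46 and 3.28 on the Sedentary arrays. Its groups were apart, yet the log2 fold change of 0.24 (SE 0.086) had an adjusted p of 0.103. Tomm40l, a paralog of the channel, read 1.44, 1.33 and 1.37 against 1.28, 0.91 and 0.99, with a log2 fold change of 0.32 (SE 0.12, adjusted p = 0.106). For Tomm40l, Sedentary 1 lay close below the lowest Exercise array.

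The small TOM subunits, which stabilise the channel, included 2 of the 4 outer membrane rises. Tomm6 read 5.79, 5.78 and 5.76 on the Exercise arrays and 5.34, 5.41 and 5.30 on the Sedentary arrays, a log2 fold change of 0.43 (SE 0.078, adjusted p = 0.0253). Its Exercise values spanned a narrow range well above the Sedentary ones. Tomm5 rose by 0.35 (SE 0.089, adjusted p = 0.0443), and Tomm7 differed by 0.21 (adjusted p = 0.131), with groups that did not overlap.

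In the SAM complex the core was called higher and the metaxins were not. Samm50, the membrane-embedded core that inserts barrel proteins, read 4.31, 4.37 and 4.21 on the Exercise and 4.06, 3.80 and 3.79 on the Sedentary arrays. Sedentary 1 lay nearest to the Exercise arrays, and the log2 fold change of 0.41 (SE 0.11) had an adjusted p of 0.0484, the closest to the threshold of all 15 called genes. Mtx1, a metaxin on the cytosolic face of the complex, read 3.66, 3.60 and 3.46 against 3.49, 3.34 and 3.27. These groups overlapped, with a log2 fold change of 0.21 (adjusted p = 0.193), but its second, dimmer probe rose by 0.31 (adjusted p over probes 0.0482). Mtx2, the partner of Mtx1, read 2.85, 2.95 and 2.75 against 2.82, 2.96 and 3.15, and its groups overlapped with a log2 fold change of -0.12 (adjusted p = 0.469). Its second probe had the same sign, at -0.19.

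Tomm34 is a cytosolic co-chaperone that meets precursors before import and is grouped here by its name. It read 3.68, 3.74 and 3.59 on the Exercise arrays and 3.81, 3.93 and 3.97 on the Sedentary arrays. It was the one import gene with every Exercise array below every Sedentary array, and its log2 fold change of -0.23 (SE 0.089) had an adjusted p of 0.113.

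In the intermembrane space 3 of the small Tim chaperones rose. Timm13, which forms a hexamer with Timm8 proteins, read 6.07, 6.07 and 5.99 on the Exercise and 5.68, 5.57 and 5.43 on the Sedentary arrays, a log2 fold change of 0.49 (SE 0.095, adjusted p = 0.0271). Timm10b, the small Tim that sits on the TIM22 complex, read 5.49, 5.57 and 5.42 against 5.09, 5.16 and 4.97. Its log2 fold change was 0.42 (SE 0.093, adjusted p = 0.0337), and the groups of both genes were apart. The other 3 of its 4 kept probes, annotated to other transcripts, had values of 0.42 (adjusted p over probes 0.0580), 0.20 (0.193) and 0.16 (0.656), all of the same sign and none past the threshold, and 2 further probes were too dim to be kept. Timm10, the chaperone that pairs with Timm9, read 5.01, 4.97 and 5.07 against 4.72, 4.62 and 4.63, and rose by 0.36 (SE 0.080, adjusted p = 0.0343). Its partner Timm9 differed by 0.25 on the log2 scale (adjusted p = 0.105), with groups that did not overlap.

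Neither Timm8 paralog passed the test. Timm8b read 7.20, 7.21 and 6.99 on the Exercise arrays and 6.90, 6.86 and 6.88 on the Sedentary arrays, with a log2 fold change of 0.26 (SE 0.094, adjusted p = 0.103). Timm8a1, whose human counterpart is mutated in deafness-dystonia syndrome, read 2.99, 2.76 and 2.77 against 2.84, 2.67 and 2.93, and the groups overlapped around a log2 fold change of 0.028 (adjusted p = 0.878). Timm8a2 was well above background on 0 of 6 arrays and was not tested. Chchd4, the oxidoreductase that folds small cysteine-rich proteins in this space, read 2.19, 2.35 and 2.33 against 1.97, 2.02 and 2.09. Its groups were apart, and its log2 fold change of 0.27 (SE 0.088) had an adjusted p of 0.0819.

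The largest log2 fold change of the 34 was that of Timmdc1, which is named for its likeness to the Tim17 family and serves as an assembly factor of respiratory complex I, not as a translocase. It read 4.53, 4.50 and 4.47 on the Exercise arrays and 3.93, 3.70 and 3.58 on the Sedentary arrays. The Exercise arrays were close together and all above the Sedentary arrays, of which Sedentary 1 was the highest, and the log2 fold change was 0.77 (SE 0.11, adjusted p = 0.0234). Against Sedentary 1 alone it was 0.57. A second, dimmer Timmdc1 probe had a change of 0.30 in log2 signal (adjusted p over probes 0.162) with overlapping groups, so the size of this rise depends on the probe.

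Timm23, the channel subunit of the presequence translocase, read 6.52, 6.49 and 6.42 on the Exercise and 5.95, 5.69 and 5.66 on the Sedentary arrays. The groups were apart, with a log2 fold change of 0.71 (SE 0.11, adjusted p = 0.0234), or 0.52 against Sedentary 1 alone. Timm50, the receptor of the same complex, rose by 0.41 (SE 0.082, adjusted p = 0.0278), and its second probe by 0.52 (adjusted p over probes 0.0239). The Tim17 paralogs partner Timm23. Timm17b read 4.72, 4.80 and 4.65 against 4.37, 4.31 and 4.26, a rise of 0.41 (SE 0.085, adjusted p = 0.0292). Timm17a read 6.53, 6.51 and 6.33 against 6.21, 6.07 and 6.10, and its log2 fold change of 0.33 (SE 0.095) had an adjusted p of 0.0605. Both paralogs therefore had separate groups, but only the change of Timm17b passed the threshold. Timm21, which links the translocase to the TOM complex and the respiratory chain, differed by 0.20 on the log2 scale (adjusted p = 0.252) with overlapping groups.

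Of the carrier translocase of the inner membrane, Timm10b rose (above), and neither the channel nor Timm29 was called. Timm22, its channel, read 3.33, 3.24 and 3.15 on the Exercise and 3.12, 3.12 and 3.18 on the Sedentary arrays. The groups overlapped, and the log2 fold change was 0.10 (95% interval -0.11 to 0.31, adjusted p = 0.430). Timm29, a subunit of the same complex, had a change of -0.070 in log2 signal (adjusted p = 0.669), also with overlapping groups.

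Of the 5 genes of the import motor at the matrix face that met the definition, 4 were called higher, against 11.5% of all genes. None of these 4 was called with quantile normalization. Hspa9 and Dnajc15, also of the motor, lie outside the definition and are given further below. Dnajc19, a J-domain co-chaperone of the motor, read 6.23, 6.27 and 6.18 on the Exercise and 5.82, 5.67 and 5.62 on the Sedentary arrays, a rise of 0.52 (SE 0.090, adjusted p = 0.0241). Its probes disagreed in sign. A second probe rose by 0.45 (adjusted p over probes 0.0291), while the remaining one, annotated to another transcript, lay below on every Exercise array with a log2 fold change of -0.25 (adjusted p over probes 0.145). Pam16, the J-like partner that holds the motor at the translocase, read 6.31, 6.29 and 6.20 against 5.83, 5.82 and 5.80. The Sedentary values were nearly equal, and the rise was 0.45 (SE 0.078, adjusted p = 0.0241).

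The nucleotide exchange factors of the motor rose together. Grpel1 read 5.50, 5.43 and 5.39 against 5.09, 5.0 and 5.06, a log2 fold change of 0.39 (SE 0.080, adjusted p = 0.0295). Grpel2, its paralog, read 3.82, 3.71 and 3.66 against 3.44, 3.38 and 3.31, a log2 fold change of 0.35 (SE 0.087, adjusted p = 0.0424). In both paralogs the groups did not overlap. Timm44, which tethers the motor to the channel, had a log2 fold change of 0.31 (SE 0.083) and an adjusted p of 0.0505, just short of the threshold, and its second probe rose by 0.41 (adjusted p over probes 0.0433).

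The peptidase that removes presequences did not pass the test. Pmpca, its substrate-binding subunit, read 2.27, 2.29 and 2.33 on the Exercise and 2.16, 2.07 and 2.19 on the Sedentary arrays, with groups that did not overlap and a log2 fold change of 0.16 (SE 0.080, 95% interval -0.04 to 0.35, adjusted p = 0.206). Pmpcb, its catalytic subunit, read 5.44, 5.38 and 5.36 against 5.24, 5.28 and 5.42. Here the groups overlapped, and the log2 fold change was 0.082 (SE 0.086, 95% interval -0.13 to 0.29, adjusted p = 0.521).

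Of the 59 probes 53 were kept, and 14 genes had several kept probes. In 13 of the 14 the probes shared a sign, Dnajc19 being the exception. Among the 53 probes 48 had a log2 fold change above 0, and with the adjustment made over all 32726 kept probes 20 were called higher and 0 lower. The shares over all kept probes were not counted, so these numbers are not read as a result about the import genes. Besides Timm8a2, Tomm20l and Tomm6os were not tested, which makes 3 in all. Tomm20l, a relative of Tomm20, was well above background on 0 of 6 arrays. Tomm6os, an RNA from the strand opposite Tomm6, was so on 2 Sedentary arrays and 0 Exercise arrays, and no fold change or test is given for it.

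**Figure D3:**
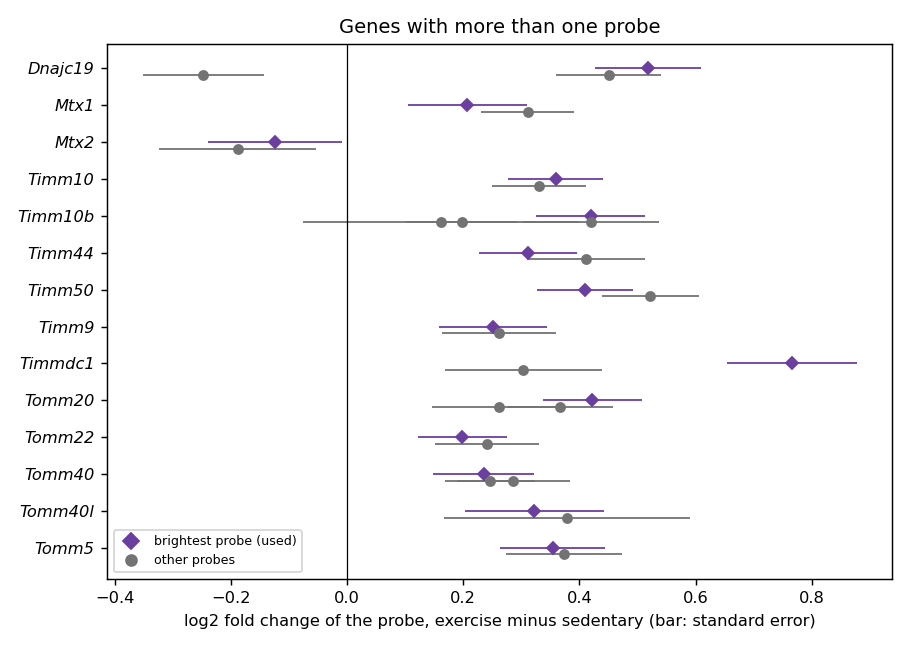
Log2 fold change (Exercise minus Sedentary, with standard error) of each kept probe of the 14 import genes with more than 1; diamonds are the brightest probe, which represents the gene, and circles the others. The probes share a sign in 13 genes, and Dnajc19 has a probe at -0.25 beside others at 0.45 and 0.52.

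Ratios taken within an array do not depend on any factor that scales a whole array. Quantile normalization, which is not such a factor, can change them. For the 6 pairs of paralogs, the log2 ratio of one to the other was compared between groups by a two-sided exact permutation test, which cannot go below 0.10 with 3 arrays against 3. The change of the ratio was 0.084 for Timm17b over Timm17a, 0.037 for Grpel1 over Grpel2, 0.074 for Pmpca over Pmpcb and -0.087 for Tomm40 over Tomm40l, with overlapping groups in each. It was 0.33 for Mtx1 over Mtx2, also with overlap, and 0.23 for Timm8b over Timm8a1, whose groups were apart (exact p = 0.10, 0.40 after Benjamini-Hochberg adjustment over the 6 pairs). The other 5 pairs had adjusted p of 0.40 to 0.70. A further pair of ratios was chosen after their values were seen and has no test. Timm23 gained 0.61 on Timm22 and Tomm20 gained 0.31 on Tomm70a, in both cases with all Exercise arrays above all Sedentary arrays. With quantile normalization the log2 fold changes were -0.063 for Timm8b and -0.078 for Timm8a1, so these paralogs hardly differed there. In that setting Tomm20 stood at 0.22 and Tomm70a at 0.045, and Timm23 at 0.45 and Timm22 at -0.033.

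**Figure D4:**
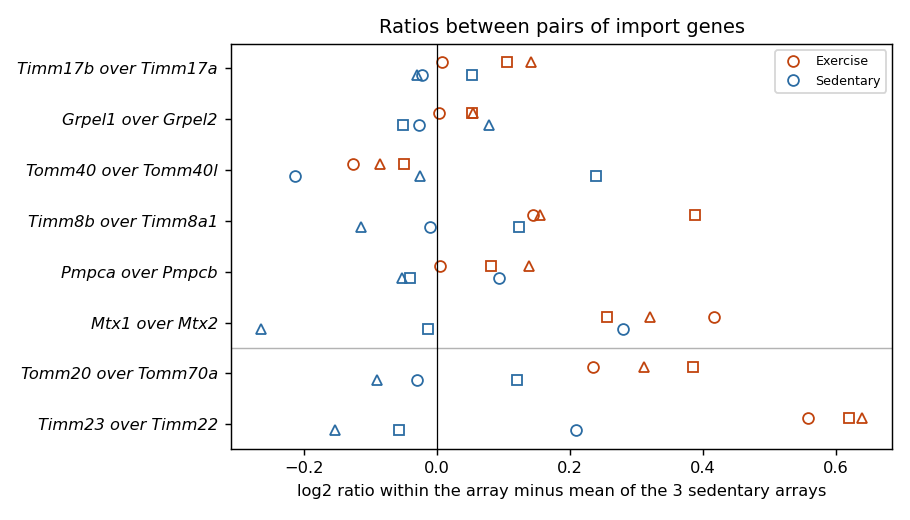
Log2 ratio between members of a pair on each array, minus the mean of the 3 Sedentary arrays, for 6 pairs of paralogs and, below the line, 2 pairs chosen after their values were seen. Groups are apart for Timm8b over Timm8a1 (0.23), Tomm20 over Tomm70a (0.31) and Timm23 over Timm22 (0.61) and overlap in the other 5.

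Of 27 other genes of the import pathway, 11 (40.7%) were called higher and 0 lower (median 0.25), against 11.5% and 6.12% of all genes. The largest rises were in Dnajc15, a further J-protein of the motor, at 0.73 (SE 0.11, adjusted p = 0.0234), and in Vdac3, a barrel-shaped pore of the outer membrane, at 0.67 (SE 0.099, adjusted p = 0.0234). Hspa9, the chaperone that drives the motor, differed by 0.31 on the log2 scale (adjusted p = 0.0723). Of 17 proteins that Chchd4 imports, 11 (64.7%) were called higher and 0 lower (median 0.40), led by Chchd10 at 0.77 (adjusted p = 0.0239) and Ndufa8, a complex I subunit, at 0.62 (adjusted p = 0.0343). Of 12 regulators and indicators of mitochondrial biogenesis, 2 (16.7%) were called higher, close to the 11.5% of all genes, and 0 lower (median 0.14). They were the citrate synthase gene Cs at 0.48 (adjusted p = 0.0383) and Esrra, a nuclear receptor, at 0.38 (adjusted p = 0.0434). Ppargc1a, the coactivator of the programme, had a change of 0.081 in log2 signal (adjusted p = 0.555), Nrf1 of -0.13 and Gabpa of -0.14, the latter 2 being the factors of the motifs above, and all 3 overlapped between groups.

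**Figure D5:**
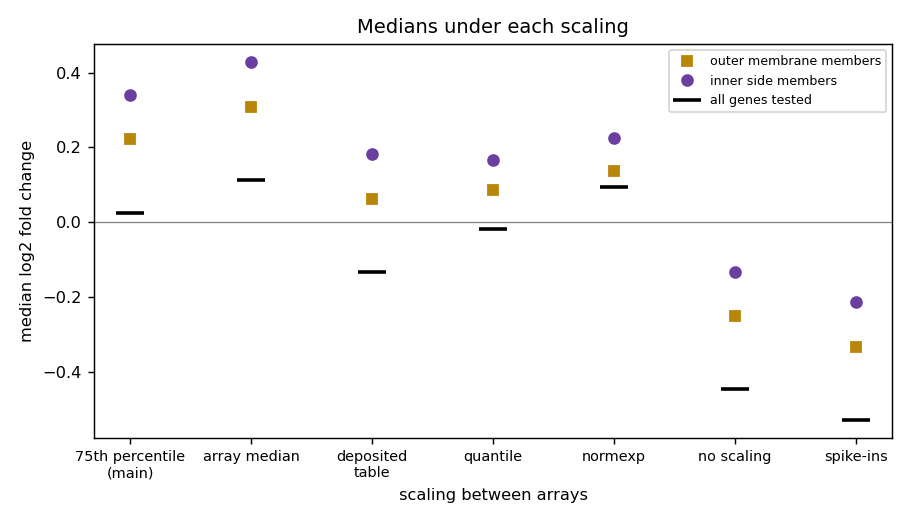
Median log2 fold change (Exercise minus Sedentary) of the outer membrane genes (squares), of the inner side genes (circles) and of all genes tested (bars) under 7 ways of scaling or correcting the arrays. Both medians lie above that of all genes in each, but below 0 with no scaling and with spike-in scaling. A factor per array cannot change the distance to all genes, so only quantile normalization and normexp could alter it.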

How the data were processed

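Total RNA of 6 quadriceps samples was labelled with Cy3 and hybridised to 6 single-colour Agilent arrays, and the authors deposited 1 Agilent Feature Extraction 12.1.0.3 file per array, whose processed signal is a background-subtracted intensity on a linear scale. The authors also deposited a value table of intensities, which equalled the processed signal times 1 factor per array (1.33 to 1.88). No scaling between arrays is given in the sources used here. The labels number the replicates without naming animals, so p-values measure the spread between these samples.

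Control spots (3671 of 62976) and outlier-flagged spots were dropped, and spots of a probe were averaged. From these deposited intensities log2 values were taken and the array's own 75th percentile subtracted. A probe had to be well above background on 3 or more of the 6 arrays to be kept (32726, after 22 with a missing value were left out), and the probe with the highest mean stood for a gene. Probe identifiers were named through the RefSeq gene table (34566 of 56605 probes), and of the 25005 genes and transcripts tested 15745 had a symbol and 9260 only the identifier of the array design. Exercise was compared with Sedentary by limma 3.58.1 (R 4.3.3; lmFit, eBayes, two-sided) without covariates, with Benjamini-Hochberg adjustment over all 25005 and a threshold of 0.05. The methods' stricter threshold, which also asks for a log2 change of 1 or more in size, was counted beside it. The fit was tested on simulated data before use. Permutation tests used scipy 1.17.1.

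Genes given with every array are the 3 with the largest absolute change in each compartment and the pairs of paralogs. From each further list the 2 with the largest change of those called are given by their fold change and test alone. Chchd4, Tomm34 and Timm22, and Hsp90aa1 and Mtx3 of the further lists, were added after their values were seen. The members, lists and alternatives were chosen with earlier results of these data known. Alternatives covered scaling, background correction, filter, choice of probe, blocks and each array left out. The number of arrays limits the precision. Protein sequences were not used here.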

Additional observations from a re-analysis of the deposited data

How the results depend on the processing

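Relative to the median of all genes, none of the 15 called import genes changed direction under any alternative run. In contrast Timm22, Timm8b, Timm8a1, Timm29, Pmpca, Pmpcb, Tomm7, Tomm22 and Tomm70a, none of them called, did under at least 1 (quantile normalization, normexp, filter, strip or an array left out). Scaling by the array median or spike-ins, no scaling and the deposited table cannot change these values. Nor can the replicate block or eBayes with trend and robust, so the outcome of these runs was fixed. Of all values recomputed for single genes, the fixed ones included, 556 stayed within the spread between replicates and 124 moved further. The counts did move. Called higher on the outer membrane side, on the inner side and among the import partners were 4, 11 and 11 genes, with 0 called lower in each. With quantile normalization these were 0, 3 and 2 (1 partner lower, medians 0.086 outer and 0.17 inner). There 7.46% of all genes were called higher and 5.45% lower. With the deposited table they were 0, 3 and 2 (1 outer gene and 1 partner lower, medians 0.063 and 0.18), beside 4.69% of all genes higher and 12.8% lower. With no scaling they were 0, 0 and 0, and 2, 2 and 8 were lower (medians -0.25 and -0.13), beside 45.1% of all genes lower. With 8 spike-in probes they were 0, 0 and 0, and 2, 1 and 9 lower (medians -0.33 and -0.21, beside -0.53 for all genes). In that setting 1.41% of all genes were called higher and 46.6% lower. Subtracting the array median left 2 outer genes higher (medians 0.31 and 0.43, beside 0.11 for all genes), and the mean of a gene's probes left 2. Called higher in these settings were 10.7% and 10.8% of all genes. Normexp gave medians of 0.14 and 0.23, beside 0.094 for all genes, and 27 of the 34 import genes lay above that all-gene median. With it 24.7% of all genes were called higher and 8.05% lower, among the latter 1 outer gene and 1 partner. Array weights also put 1 outer gene and 1 partner lower, and the filter on all arrays and eBayes with trend and robust 1 partner lower each. Of all genes, 14.5%, 7.8% and 7.95% were called lower in these runs, respectively. The strip as a block and the comparison within one strip gave 0, 0 and 0 higher, and 0 of all genes. The numbers did not pair the samples (correlations of deviations 0.015 to 0.085), and with the replicate number as a block 0, 0 and 0 were called higher, as were 0 of all genes tested. With that block 19 import genes were higher at an unadjusted p under 0.05, beside 8591 of all 25005 genes in either direction. With each array left out in turn the calls ranged from 0 to 5 on the outer side, from 0 to 12 on the inner side and from 0 to 7 among the partners, with 0 to 1 partner lower. The 0 values came with any array left out other than Sedentary 1, when 0 of all genes were called higher. The cause of these differences was not tested. With 3 arrays in each group, a change within the spread of the arrays could not be called.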
